A study of Drosophila melanogaster with 5 samples.

Results

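The 10 genes described here, piwi, aub, AGO3, tej, qin, krimp, spn-E, zuc, rhi and mael, belong to the piRNA pathway, which silences transposons and repeats in the germline. They were taken by symbol from a deposited table of 12847 genes, and all 10 symbols were found there. In this pathway, PIWI proteins of the Argonaute family carry small RNAs (piRNAs) that guide them to matching transcripts. Piwi acts in the nucleus on transcription, whereas Aub and AGO3 work in the cytoplasm, in the perinuclear nuage, where they cleave transposon and piRNA precursor transcripts in turn and so amplify piRNAs (the ping-pong cycle). In Drosophila testes, the pathway is best known for silencing the X-linked Stellate repeats through piRNAs made from the Y-linked Su(Ste) repeats.

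RNA was taken from testis ribosomes of adult males of the Batumi strain, whose age the labels give as 1-2 with no unit. In the first group, ribosomes were immunoprecipitated with antibodies to βNACtes (βNACtes IP, 3 libraries). βNACtes is a β-subunit, specific to germ cells, of NAC (nascent polypeptide associated complex), a dimer that sits on ribosomes and contacts the growing protein chain. In the second group, RNA of all ribosomes in the same kind of extract was taken (total ribosomes, 2 libraries). Both groups carry no named mutation or treatment, and 1000 testes were pooled for an extract. The extract, and with it total ribosomes, holds ribosomes from all cell types of the dissected tissue. The βNACtes IP was meant to select from it the ribosomes that carry this germ cell subunit.

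For each gene the authors deposited a mean value per group, treated here as FPKM (fragments scaled to transcript length and library depth), so levels can be compared between genes. Single libraries were not analysed. No spread between replicates can therefore be given for any value, no difference below was tested, and the depth of the libraries is unknown. The quantity compared is the log2 ratio, the difference of log2(FPKM + 0.1) between βNACtes IP and total ribosomes, positive where the IP was higher. This ratio understates the difference for genes of low level. Over the 9793 genes with a mean of both groups of at least 1 FPKM its median was 0.73, and the relative log2 ratio of a gene is its ratio minus this median. Genes at 1 or above are called higher and genes at −1 or below lower, by size alone.

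Of the 10 members, 7 reached the mean of 1 FPKM. The members just above this limit were tej, with a mean of 1.07 FPKM, and piwi, with 1.17 FPKM. Those below it were zuc with 0.735, rhi with 0.543 and qin with 0.11 FPKM. Of the 7, AGO3 was called higher in the βNACtes IP, aub was called lower (its uncentred log2 ratio turned to 0.16 with both groups scaled to the same sum, TPM), and 5 were called neither. Over all genes kept, 26.4% were called higher and 29.2% lower. With 1 of 7 members in each direction, the list is too small to be set apart from this background. The median relative log2 ratio of the 7 members was −0.31, against −0.02 for all genes kept that were above 0 in both groups.

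The PIWI genes held both the highest and the lowest ratio of the 7 members. AGO3 (FBgn0250816), which binds mostly sense piRNAs and is the partner of Aub in the ping-pong cycle, had 4.81 FPKM in the βNACtes IP and 0.71 FPKM in total ribosomes. Its relative log2 ratio was 1.87, above that of 88.7% of the genes kept. aub (FBgn0000146), which encodes the cytoplasmic PIWI protein that binds mostly antisense piRNAs, had 4.46 FPKM in the βNACtes IP and 7.11 FPKM in total ribosomes. Its relative log2 ratio was −1.39, and without centring −0.66 as deposited and 0.16 with TPM scaling. piwi (FBgn0004872), which encodes the nuclear PIWI protein and is known from both germ cells and somatic cells of the gonad, had 1.35 FPKM in the βNACtes IP and 0.985 FPKM in total ribosomes. Its relative log2 ratio was −0.31, so aub and piwi lay below the median of all genes and AGO3 above it.

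Within a group, the level of a gene relative to another does not depend on how the groups are scaled. AGO3 stood at 1.08 times the level of aub in the βNACtes IP, against 0.0999 times in total ribosomes. The log2 ratio of AGO3, which includes the pseudocount, was 3.26 above that of aub. Because of the pseudocount this difference moved slightly with the scaling, to 3.14 with TPM and 3.31 with the upper quartile. Without such a scaling AGO3 was 2.18 above piwi, and aub was 1.08 below piwi (−1.08). The order of the levels was AGO3, aub, piwi in the βNACtes IP and aub, piwi, AGO3 in total ribosomes. In the βNACtes IP AGO3 and aub are neighbours in this order, and in total ribosomes piwi and AGO3 are, but whether such neighbours differ beyond their spread cannot be said.

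Genes of a level like that of AGO3 were often called. Of 1757 genes with a mean from 2 to 5 FPKM, 32.7% were higher and 24.0% lower. Of 1481 genes with a mean from 5 to 10 FPKM, where aub belongs, 26.8% were higher and 26.8% lower. Pairs of values close to those of the PIWI genes were also common. Within a distance of 0.5 on the 2 log2 axes (Euclidean), 164 genes lay around AGO3, 196 around aub and 173 around piwi. The nearest genes outside the lists used here were Cirl, CG43400 and lbk for AGO3, CG17108, dor and CG3699 for aub, and pod1, CG4928 and CG34232 for piwi. Likeness here rests on 2 values per gene.

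**Figure D1:**
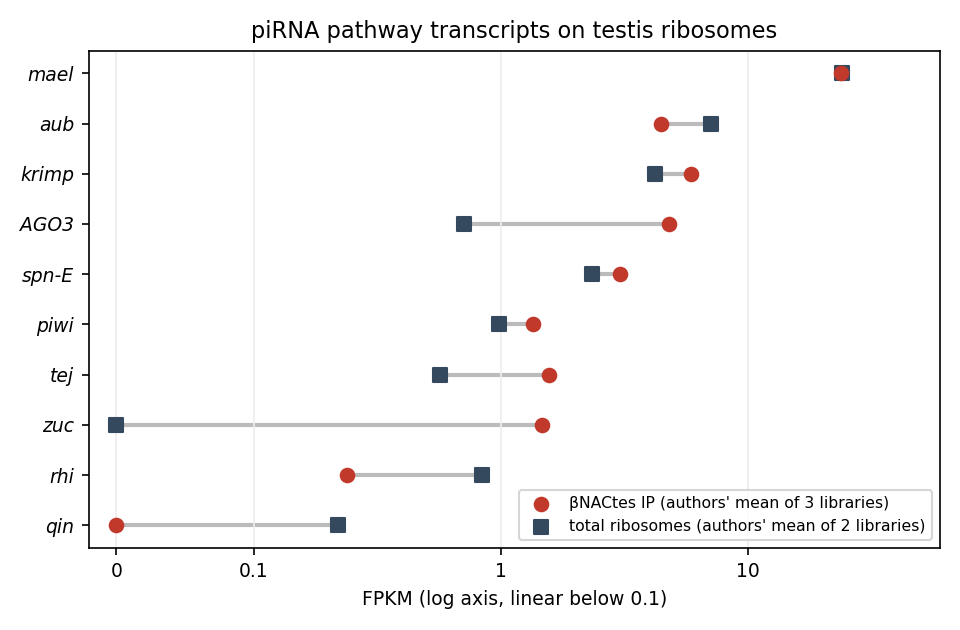
Levels of the 10 piRNA pathway members in FPKM (log axis, linear below 0.1), with circles for the βNACtes IP and squares for total ribosomes, each the authors' mean over the libraries of the group and shown without error. The symbols of mael lie on each other at 23.9 and 24.2 FPKM, those of AGO3 are far apart with the βNACtes IP higher, and qin in the βNACtes IP and zuc in total ribosomes are listed at 0.

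The other proteins of the nuage assemble PIWI proteins and their RNAs, several of them through Tudor domains, which bind methylated arginines. krimp (FBgn0034098), whose Tudor domain protein brings AGO3 and Aub together, had 5.93 FPKM in the βNACtes IP and 4.24 FPKM in total ribosomes. spn-E (FBgn0003483), which encodes a helicase with a Tudor domain that is needed for ping-pong, had 3.05 FPKM in the βNACtes IP and 2.36 FPKM in total ribosomes. The values of both genes were a little higher in the βNACtes IP, as those of 70.0% of all genes were, and relative to the median their log2 ratios were −0.25 for krimp and −0.37 for spn-E. tej (FBgn0033921), another Tudor domain protein of the nuage, had 1.57 FPKM in the βNACtes IP and 0.57 FPKM in total ribosomes. With a relative log2 ratio of 0.59 (0.078 with a pseudocount of 1) it came next to AGO3 among the members, but it was not called higher.

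mael (FBgn0016034) encodes an HMG-box protein that is found in nuage and nucleus and acts with Piwi in transcriptional silencing. It had the highest level of the members in both groups, 23.9 FPKM in the βNACtes IP and 24.2 FPKM in total ribosomes. These levels were 4.04 times that of krimp in the βNACtes IP, where krimp came next, and 3.40 times that of aub in total ribosomes, where aub did. mael made up 51.1% of the summed FPKM of the members in the βNACtes IP, against 58.7% in total ribosomes. Its relative log2 ratio was −0.75. The other 9 members ranged from 0 to 5.93 FPKM in the βNACtes IP and from 0 to 7.11 FPKM in total ribosomes. Among all 12847 genes, mael was at percentile 70.1 in the βNACtes IP, against 75.2 in total ribosomes, whereas the median level of the members was 2.31 FPKM in the βNACtes IP and 0.915 FPKM in total ribosomes, below that of all genes (7.05 and 4.32 FPKM).

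The 3 members under 1 FPKM have no call. qin (FBgn0263974), a Tudor domain protein that keeps ping-pong between Aub and AGO3, was listed at 0 in the βNACtes IP and had 0.22 FPKM in total ribosomes. zuc (FBgn0261266), the endonuclease of the outer mitochondrial membrane that cuts piRNA precursors, had 1.47 FPKM in the βNACtes IP and was listed at 0 in total ribosomes. rhi (FBgn0004400), the HP1-like protein that marks piRNA clusters transcribed from both strands, had 0.24 FPKM in the βNACtes IP and 0.845 FPKM in total ribosomes. In total ribosomes 1837 genes were listed at 0, against 233 in the βNACtes IP, so a 0 in total ribosomes is common in this table. A listed 0 may be a failed estimate, and no fold is given against it.

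Since the median of all genes moves with the scaling, the calls of the members do too. With the values as deposited the median log2 ratio of the genes kept was 0.73, and AGO3 and tej (1.32) were called higher and none lower, where 43.6% of all genes were higher and 18.3% lower. Scaled to the upper quartile, the median of all genes was 0.25 and the members kept the 1 higher and 1 lower call, where 32.1% of genes were higher and 25.4% lower. With each group scaled to the same sum (TPM), the median of all genes was 1.55. AGO3, tej, krimp, piwi and spn-E were then higher and none was lower, where 62% of genes were higher and 8.7% lower. Of the genes past the threshold 47.5% were higher with centring on the median, 55.8% with the upper quartile, 70.5% as deposited and 87.7% with TPM. The log2 ratio of aub was −0.66 as deposited and 0.16 with TPM, so its direction turns with the scaling, whereas AGO3 was called higher under each of these 4 scalings.

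**Figure D2:**
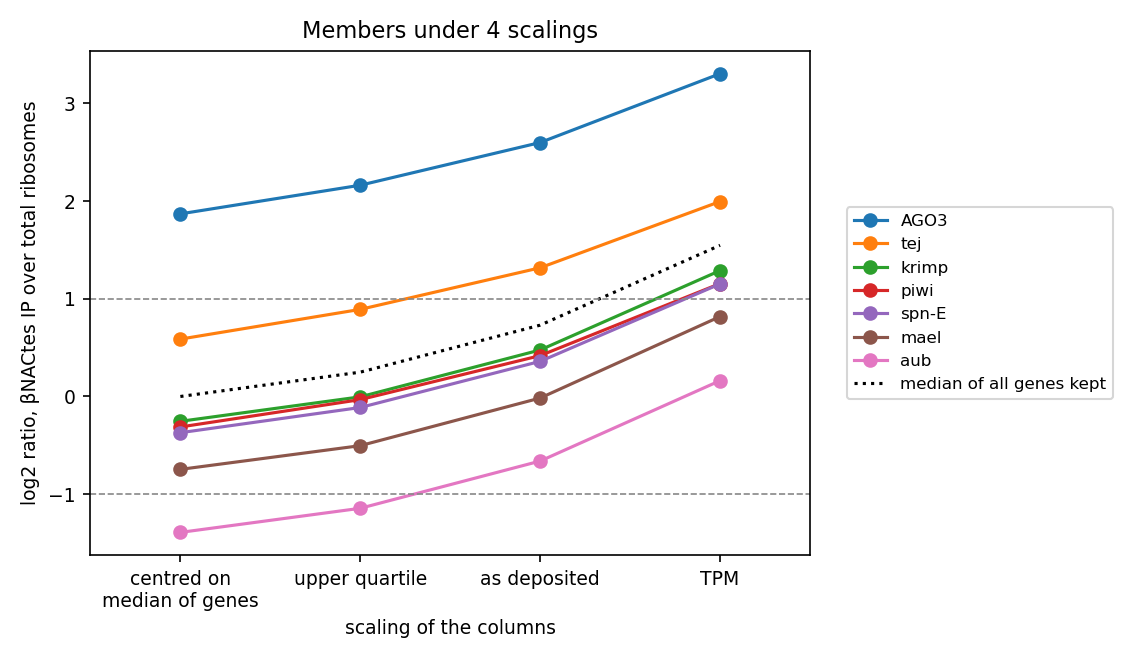
The log2 ratio of the βNACtes IP over total ribosomes for the 7 members with a mean of at least 1 FPKM (lines) under 4 scalings of the groups, with the median of all genes kept as a dotted line and the size limits of 1 and −1 dashed. All lines move together, AGO3 stays above the median of all genes and aub below it, and aub lies at −1.39 on the left and at 0.16 on the right.

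Longer transcripts had higher ratios in this table. Across 9700 genes, which are not independent replicates and share both groups of libraries, Spearman's rho between exonic length and relative log2 ratio was 0.33. In 5 bins of nearly equal size, the median relative log2 ratio was −0.66 in the bin of the shortest genes (76 to 875 bp), 0.14 in the next to longest (2007 to 3223 bp) and 0.98 in the longest (3224 to 58996 bp). AGO3, aub and piwi have nearly the same exonic length, 3182, 3015 and 3073 bp, and lie in the same bin. Set against the median of their own bin, AGO3 was at 1.73, piwi at −0.45 and aub at −1.53. spn-E, with 4678 bp in the longest bin, was at −1.35 on this scale and was then called lower. The part of length in the ratios of the members was not tested.

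**Figure D3:**
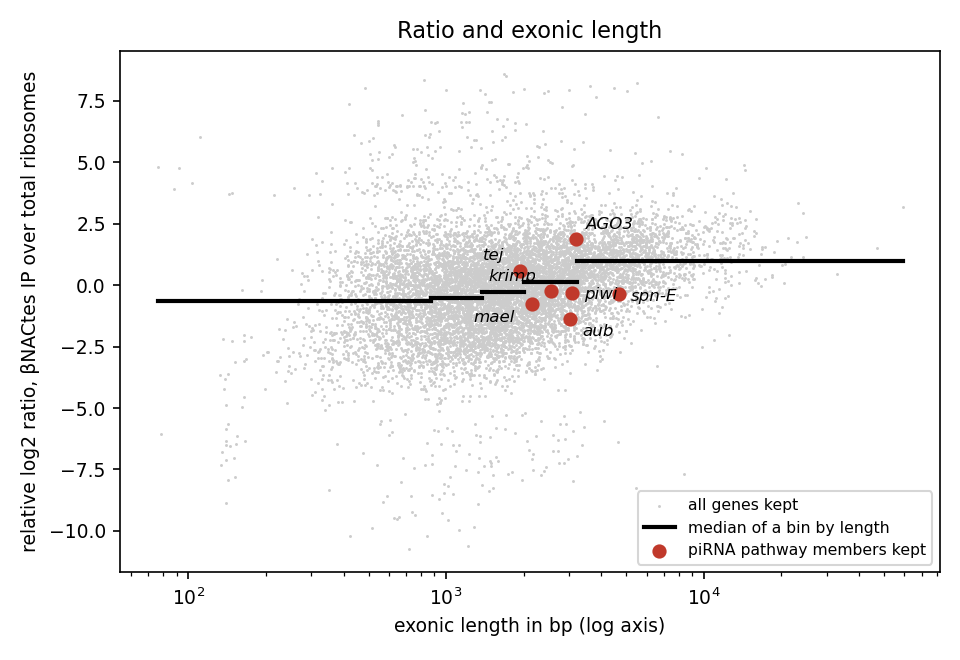
Relative log2 ratio of the βNACtes IP over total ribosomes against exonic length in bp (log axis) for all genes with a mean of at least 1 FPKM (grey points), the medians of 5 bins by length (black lines) and the 7 members kept (large points). AGO3, piwi and aub stand nearly above each other at 3015 to 3182 bp, at 1.87, −0.31 and −1.39 (aub turned to 0.16, uncentred, with TPM scaling).

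In the BDGP6 genome (dm6, Ensembl release 115) the members lie on 4 chromosome arms. piwi (chromosome 2L, from 10982205 to 10987420) and aub (2L, from 10997819 to 11001476) lie 10398 bp apart on the same strand (minus), and zuc (2L, from 11988735 to 11989882, minus strand) is a gene of a single exon. mael (3L, from 22721203 to 22726234, plus strand) and AGO3 (3L, from 23554593 to 23689640, plus strand) are 828358 bp apart. qin (3R, from 18591027 to 18650137) and spn-E (3R, from 15837419 to 15844415) lie on the plus strand, and tej (2R, from 14300103 to 14302353), krimp (2R, from 16238103 to 16240722) and rhi (2R, from 17628491 to 17633516) on the minus strand. AGO3 spans 135048 bp for 3182 exonic bp. This span holds 106 annotated transposable elements, against 3 in piwi, 3 in mael, 1 in qin and 0 in the other 6 members, and 166 bp of AGO3 exons overlap a copy of INE-1. The submitters' processing notes name the older build dm3, so the gene models behind the values may differ from these.

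Exons of 5 members overlap exons of a gene on the other strand, and the labels do not say whether counting used the strand. aub shares 79 bp with TTLL4A, which had 112 FPKM in the βNACtes IP and 13.4 FPKM in total ribosomes. piwi shares 191 bp with SCAR, which had 6.00 FPKM in the βNACtes IP and 2.90 FPKM in total ribosomes. mael shares 246 bp with CG14451 (2.99 FPKM in the βNACtes IP, listed at 0 in total ribosomes), and zuc shares 67 bp with CG34163 (2.67 and 3.45 FPKM in the same order). qin shares 17 bp with CG31224 and 21 bp with CG14304, and its introns hold Tssk on the same strand, with 294 FPKM in the βNACtes IP and 118 FPKM in total ribosomes. Exons of AGO3, tej, krimp, spn-E and rhi overlap no other gene. The part of shared reads in these values was not tested.

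The rest of the pathway was described with 2 lists. Of 17 genes of piRNA processing and nuage, all were in the table and 16 reached a mean of 1 FPKM. By the size rule 3 were higher, 5 lower (0 with TPM scaling) and 8 neither, with a median relative log2 ratio of 0.11, which turned to −0.09 with a pseudocount of 1 and to −0.36 with centring within the length bins. The 3 higher genes are known from mitochondria, where piRNA precursors are cut. Gasz, a scaffold of the outer mitochondrial membrane, had 4.13 FPKM in the βNACtes IP and 0.32 FPKM in total ribosomes. papi, a Tudor domain protein there, had 64.2 FPKM in the βNACtes IP and 11.0 FPKM in total ribosomes, and mino, an acyltransferase of the outer membrane, had 43.5 and 9.66 FPKM in the same order. Their relative log2 ratios were 2.60 for Gasz, 1.81 for papi and 1.43 for mino. Centring within the length bins also gave 3 higher genes, but these were Gasz, papi and the nuage gene squ. On that scale mino was called neither. Another protein of the mitochondrial surface, daed, went the other way with 3.34 FPKM in the βNACtes IP and 5.26 FPKM in total ribosomes (−1.37). With TPM scaling daed had 4.16 TPM in the βNACtes IP and 3.66 TPM in total ribosomes, so its direction turns with the scaling. It was also not called lower with centring within the length bins.

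The other lower genes of this list were fs(1)Yb, shu, tapas and csul. fs(1)Yb, whose protein forms the Yb bodies in which piRNAs are made in somatic cells of the ovary, had 1.13 FPKM in the βNACtes IP and 3.86 FPKM in total ribosomes. With −2.42 it had the lowest relative log2 ratio of the list. shu, a co-chaperone that loads PIWI proteins, was at −1.78, tapas, a Tudor domain protein, at −1.34 and csul, the methyltransferase that modifies arginines of PIWI proteins, at −1.29. With TPM scaling the values of tapas (20.3 TPM in the βNACtes IP and 17.3 TPM in total ribosomes) and csul (5.44 and 4.52 TPM in the same order) turned, and those of fs(1)Yb and shu did not. armi, the helicase that hands precursors to the mitochondrial surface, was at 0.99 with 10.1 FPKM in the βNACtes IP and 3.01 FPKM in total ribosomes. squ, a nuage protein, was at 0.63, tud, the founding Tudor protein, at 0.91, and Hen1, which methylates the 3′ ends of piRNAs, at 0.32. None of these was called with centring on the median of all genes.

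Of 16 genes of piRNA clusters and nuclear silencing 12 were analysed, and 11 reached a mean of 1 FPKM. By the size rule 2 were higher, 3 lower (0 with TPM scaling) and 6 neither, with a median of −0.23. Centring within the length bins gave 1 higher and 4 lower, and a pseudocount of 1 gave 1 higher and 3 lower. del, which binds Rhi on piRNA clusters, had 5.69 FPKM in the βNACtes IP and 0.175 FPKM in total ribosomes. Its relative log2 ratio of 3.67 was the highest of all piRNA pathway genes described here. Its partner rhi, which has no call, had the lower value in the βNACtes IP. There del stood at 23.7 times the level of rhi, against 0.207 times in total ribosomes. Both folds are uncertain, since rhi had only 0.24 FPKM in the βNACtes IP and del only 0.175 FPKM in total ribosomes. The lower genes were Hel25E, an RNA helicase of mRNA export that also handles cluster transcripts (−1.26), and thoc5 (−1.23) and thoc6 (−1.88) of the THO complex, of which Hel25E (28.9 TPM in the βNACtes IP and 23.4 TPM in total ribosomes) and thoc5 (11.9 and 9.44 TPM in the same order) turned with TPM scaling. tho2 of the same complex was at 0.64 and thoc7 at −0.23. wde, a cofactor of the H3K9 methyltransferase, was higher at 1.11, while egg, which encodes this enzyme, was at −0.59. The call of wde was lost with centring within the length bins, with a pseudocount of 1 and without a filter on low values. egg was called lower with centring within the length bins. Panx and arx, which act with Piwi on transcription, were at 0.69 and 0.44 and were called neither. The gene of heterochromatin protein HP1a (FBgn0003607), which binds H3K9 methylation, had the highest level of the list with 52.4 FPKM in the βNACtes IP and 51.0 FPKM in total ribosomes.

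Over both lists, 5 of 27 genes were higher (26.4% of all genes kept were) and 8 lower (29.2%). The share that was higher was below that of all genes, the share that was lower was close to it, and neither was tested. With TPM scaling, where 62% of all genes were higher, 9 of the 16 processing genes and 6 of the 11 nuclear ones were.

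The siRNA and miRNA pathways share the Argonaute fold with the piRNA pathway and are active in somatic cells as well. All 10 listed genes reached a mean of 1 FPKM. Of these, 2 were higher (26.4% of all genes kept were), 0 lower (29.2%) and 8 neither, with a median of 0.41. The median exonic length of this list is 4987 bp. With centring within the length bins 1 was higher (25.2% of all genes were), 2 were lower (27.6%) and the median turned to −0.16. With TPM scaling 8 were higher, where 62% of all genes were. loqs, the double-stranded RNA binding partner of Dicer, had the highest level with 99.9 FPKM in the βNACtes IP and 20.2 FPKM in total ribosomes (1.57), and gw, which silences transcripts bound by AGO1, was at 1.42. Among Argonaute genes, AGO1 of the miRNA pathway had 2.40 FPKM in the βNACtes IP and 0.72 FPKM in total ribosomes (0.88), and AGO2 of the siRNA pathway had 9.68 FPKM in the βNACtes IP and 10.4 FPKM in total ribosomes (−0.83). AGO1 thus stood at 0.499 times the level of AGO3 in the βNACtes IP, against 1.01 times in total ribosomes. AGO2 was at 2.17 times aub in the βNACtes IP, against 1.46 times in total ribosomes. drosha, the nuclear RNase of the miRNA pathway, had the lowest ratio of the list with 1.70 FPKM in the βNACtes IP and 2.07 FPKM in total ribosomes, and its relative log2 ratio of −0.999994 lies at the limit for a lower call.

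**Figure D4:**
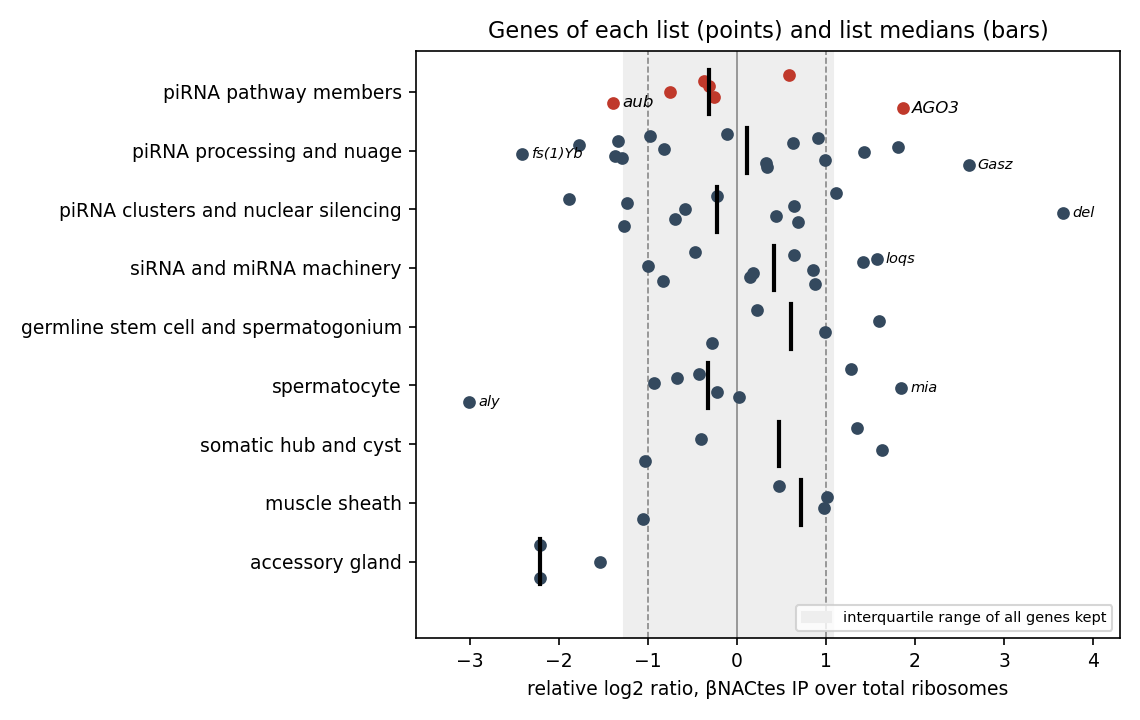
Relative log2 ratio of the βNACtes IP over total ribosomes for the genes of each list with a mean of at least 1 FPKM (points, spread vertically for legibility), list medians (bars), the interquartile range of all genes kept (grey) and the size limits of 1 and −1 (dashed). The members span −1.39 (aub, which turned to 0.16, uncentred, with TPM scaling) to 1.87 (AGO3), and the points of the other piRNA lists reach from fs(1)Yb at −2.42 to del at 3.67.

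Stellate and Su(Ste) transcripts, looked up after the values of the members had been seen, were near or at 0. Of 2 Stellate copies in the table, Ste:CG33237 had 0.21 FPKM and SteXh:CG42398 0.39 FPKM in the βNACtes IP, and both were listed at 0 in total ribosomes. The 7 Su(Ste) copies ranged from 0 to 0.61 FPKM in the βNACtes IP and were all listed at 0 in total ribosomes. Reads of these near-identical copies can be divided among them in several ways, so the value of a single copy is uncertain.

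Markers of the cell types in the tissue were set beside the members, since in bulk RNA fewer cells of a type and less RNA per cell cannot be told apart. By immunostaining, the authors report strong βNACtes protein in spermatocytes and none in the accessory gland and the testis tip. The values here are RNA, and how far the IP follows that staining was not tested. For the counts below, 26.4% of all genes kept were higher and 29.2% lower, and with TPM scaling 62% and 8.7%. Of 4 genes of germline stem cells and spermatogonia 1 was higher and 0 lower (median 0.61), from bam at −0.28 to stai at 1.59. With centring within the length bins 0 were higher and the median was 0.26, and with TPM scaling all 4 were higher. bam, the switch to spermatocyte fate, had 1.26 FPKM in the βNACtes IP and 0.895 FPKM in total ribosomes, close to piwi, whereas bgcn, its partner, had the highest level of the list in both groups. All 8 spermatocyte genes were detected, from 7.07 FPKM (can) to 77.4 FPKM (sa) in the βNACtes IP and from 4.06 FPKM (mia) to 84.0 FPKM (aly) in total ribosomes. Of these 2 were higher and 1 lower (median −0.33). The lower one was aly, a regulator of meiotic transcription, with 17.3 FPKM in the βNACtes IP and 84.0 FPKM in total ribosomes, and the highest ratio was that of mia, a testis TAF, at 1.85. With TPM scaling 5 spermatocyte genes were higher and 1 lower (uncentred median 1.23), and without a filter on low values 2 were higher and 2 lower. The summed level of the stem cell and spermatogonium list was 66.4 FPKM in the βNACtes IP and 18.2 FPKM in total ribosomes. Of this, bgcn held 39.2 and 11.8 FPKM and stai 24.4 and 4.8 FPKM in the same order. The summed level of the spermatocyte genes was 230.2 FPKM in the βNACtes IP and 235 FPKM in total ribosomes, and aly weighs on the second sum. As deposited, 6 of the 8 spermatocyte genes had the higher value in the βNACtes IP, as 70.0% of all genes did. Of 4 hub and cyst cell genes that were kept 2 were higher and 1 lower, from Fas3 at −1.03 to eya at 1.63, and over the 5 genes in the table their level summed to 18.8 FPKM in the βNACtes IP and 8.58 FPKM in total ribosomes, where tj was listed at 0. Centring within the length bins left 0 higher and 1 lower and turned the median of the 4 to −0.09, against 0.47, a pseudocount of 1 left 1 higher and 0 lower, and with TPM scaling 3 were higher and 0 lower, Fas3 having 4.70 TPM in the βNACtes IP and 3.26 TPM in total ribosomes. Of 4 muscle genes up was higher (1.02) and Act57B lower (−1.06), but neither was called with a pseudocount of 1 or with centring within the length bins, and with TPM scaling Act57B turned to 101 TPM in the βNACtes IP and 70.6 TPM in total ribosomes. The list summed to 119 FPKM in the βNACtes IP and 114 FPKM in total ribosomes, of which Act57B held 80.8 and 101 FPKM in the same order. As deposited, 3 of the 4 muscle genes had the higher value in the βNACtes IP. The 3 accessory gland genes, markers of a somatic organ outside the testis, were all lower (0 with TPM scaling), from Acp62F at −2.22 to Acp36DE at −1.54. With TPM scaling Acp36DE turned to 1179 TPM in the βNACtes IP and 1152 TPM in total ribosomes. The 3 genes summed to 3901 FPKM in the βNACtes IP and 9926 FPKM in total ribosomes, so this RNA was present in both groups. The part of other cell types in the values of the members was not tested.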

How the data were processed

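RNA of testis ribosomes was sequenced by the authors in 5 libraries, 3 from βNACtes IP and 2 from total ribosomes. The submitters' processing notes name TopHat2 2.0.14, Bowtie, Bowtie2 and Cufflinks 2.2.1 and the build dm3, without their roles. The authors deposited 1 table with a mean per group, whose unit is not named. The values are treated as deposited FPKM, because value times exonic length in kilobases gave nearly equal sums, 1098119 for the βNACtes IP and 1098789 for total ribosomes, while the unweighted sums were 802728 and 1435535. A column of log2 ratios, which the authors computed and deposited, was not used. Annotation, filters and how multi-mapping reads were handled are not given in the sources used here.

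log2(FPKM + 0.1) was compared between groups for genes with a mean of at least 1 FPKM, centred on their median. Other pseudocounts, filters and scalings and a centring by length were tried. No count test and no limma test was possible without values of single libraries. The members and lists were chosen with earlier results of these data known. Listed genes were matched by symbol, by identifier or by a synonym that only 1 gene holds; of 33 other piRNA genes 29 were matched, and cuff, boot, nxf3 and nxf2 were not analysed here, nor were nos, upd1 and sex peptide (listed as Acp70A and as SP). All members are named, and of each list the genes past the size rule, the extremes and some of the rest. Exonic lengths come from Ensembl release 115, where 136 rows have no match. Python 3.11.15, numpy 2.4.6, pandas 2.3.3 and matplotlib 3.10.9 were used. No sequences are shown, because no sequence was used here.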

Additional observations from a re-analysis of the deposited data

How the results depend on the processing

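No paired analysis was possible because the table gives 1 mean per group, and for the same reason leaving out a library was not possible. Relative to the 1 higher and 1 lower member reported, with a median of −0.31, a pseudocount of 1 gave the same calls and a median of −0.36. Without a filter on low values 1 member was higher and 2 were lower, rhi being added, and the median was −0.47. qin and zuc, each listed at 0 in a group, were left out of these member values too. With a mean of at least 10 FPKM only mael was left, so 0 members were higher and 0 lower, the median was −0.60, and 1411 of all genes were higher and 1652 lower, since fewer genes were kept. With values as deposited 2 members were higher and 0 lower (median 0.42), and of all genes 4267 were higher and 1788 lower, against 2586 and 2858 with centring. With TPM scaling 5 members were higher and 0 lower (median 1.16), of all genes 6072 were higher and 852 lower, and aub turned to 0.16. With the upper quartile the median was −0.032. With centring within 5 bins of exonic length 1 member was higher and 2 lower, with spn-E added, and the median was −0.45. AGO3 stayed above 1 under each setting that kept it, at the lowest 1.13 with a pseudocount of 1, where the difference between AGO3 and aub was 2.34 instead of 3.26. The unknown depth limits all values, and most those of members near or under 1 FPKM.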
